A study of Mus musculus and Homo sapiens with 12 samples.

Results

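Cytosolic ribosomal protein genes encode the proteins of the large (Rpl and Rplp symbols) and small (Rps symbols, with Rpsa) subunits of the ribosome that translates nuclear-encoded mRNA. They were taken by a rule on the symbol, which uses no measured value and gave 87 of 54446 mouse gene identifiers and 91 of 58721 human ones, 178 of 113167 in all. The symbol rule also took in paralogue-like genes (such as Rpl22l1, Rps27l and Rpl7l1), a binding protein that is no ribosomal protein (Rps19bp1) and read-through genes with a hyphen in the symbol. Without these, 78 mouse and 79 human core genes remained, with the retrotransposed copy Rps27rt still among the mouse ones. Of all members, 85 symbols were shared between the species.

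The study asked where 5-methylcytosine (m5C), a methylated base of RNA, lies in chromatin-associated RNA (caRNA), the RNA that stays with the chromatin when cells are fractionated. The samples came from wild-type mouse embryonic stem cells (mES cells), kept with LIF and the inhibitors CHIR99021 and PD0325901 and passaged to clear feeder cells, and from wild-type K562, an established human erythroleukaemia line. The labels list puromycin in the K562 medium, whereas the study's methods give it for knockdown lines of K562 and not for the parental cells. No group carried a deletion or an experimental treatment. In each line, fragmented caRNA was sequenced as Input and after pull-down with an antibody to m5C (IP), with 3 libraries of each kind, so that 12 libraries fell into 4 groups.

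Ribosomal protein genes are among the most heavily transcribed genes of a growing cell, and each ribosome takes a single copy of nearly every protein. Their mature mRNAs are short, abundant and mostly cytosolic, and begin with a run of pyrimidines, the 5′ terminal oligopyrimidine (TOP) motif, through which growth signals control their translation. Their introns often hold small nucleolar RNAs (snoRNAs), and processed pseudogene copies of them are scattered through mammalian genomes. In caRNA, their reads can come from unspliced transcripts at the gene as well as from spliced mRNA that stayed in the fraction, and gene counts do not tell these apart.

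Depth differed widely between the kinds of library, with 29007088 to 34752646 counts in genes in mES cell Input, 473398 to 592324 in mES cell IP, 10477119 to 11865285 in K562 Input and 93110 to 111286 in K562 IP. A count of 3 stood for at most 0.103 CPM (the count scaled to the library's total in genes) in mES cell Input and 0.286 CPM in K562 Input, but for 5.06 to 6.34 CPM in mES cell IP and 27.0 to 32.2 CPM in K562 IP. Over the 3 libraries of a kind, the median ribosomal protein gene had 5959 counts in mES cell Input, 55 in mES cell IP, 728 in K562 Input and 30 in K562 IP, so the IP counts set the precision of every value below. The K562 Input replicates hardly differed beyond the sampling noise over genes, with a chi-square per degree of freedom of 0.911 for replicates 1 and 2, 0.920 for 1 and 3 and 1.03 for 2 and 3. They may thus be less than 3 samples. All entered the fits, with 66 ribosomal protein genes called in K562 and 72 in the comparison of the lines. Counting replicates 1 and 2, or 1 and 3, as 1 sample left both numbers as they were, and counting all 3 as 1 sample, taken to vary like the other libraries, gave 61 and 72. Over all tested genes, that last step took the share higher from 15.0% to 11.4% in K562 and from 16.5% to 15.6% in the comparison of the lines. The study calls its replicates biological, but neither it nor the labels say that these came from separate cultures, so p-values measure only the spread between these samples, which may be technical. Of the markers checked, 9 of 10 of embryonic stem cells had counts in the mES cells (Sox2 was at 0) and 8 of 10 of K562 in K562 cells (HBE1 and HBG2 were at 0). The 8 feeder fibroblast markers summed to 53.7 to 55.9 CPM in mES cell Input, beside 2353 to 2387 CPM for the stem cell markers. The 6 lymphocyte markers summed to at most 3.03 CPM in K562 Input, although the label calls the line lymphoblast.

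At some members the counts gave no information. Rpl13 and Rpl24 were at 0 counts in all 6 mES cell libraries, as were RPL10L, RPL17, RPL26, RPL36A and RPS10 in all 6 K562 libraries. All of these named genes but RPL10L lie almost wholly under another gene of the same strand, from 96.5% of the span in the least covered to 100% for Rpl13, and genes that lie so were almost all at 0 in these counts. Their 0 is therefore no measure of expression, while RPL10L, an intronless copy of RPL10 with no such overlap, stayed under the floor of 3 counts. A filter on low counts left 83 of the 87 mouse and 80 of the 91 human genes to be tested, and 2 of the human genes are Y-linked and are counted here only.

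The ribosomal protein genes took a smaller share of the IP counts than of the Input counts in mES cells and a larger share in K562. In mES cells, they held 0.600%, 0.600% and 0.597% of the gene counts in the Input libraries and 0.322%, 0.294% and 0.324% in the IP libraries. The IP values all lay below the Input values, at a mean ratio of 0.524. In K562, the shares were 0.210%, 0.207% and 0.211% in Input and 0.969%, 0.880% and 1.02% in IP. Here the IP values all lay above the Input values, at a mean ratio of 4.57. In Input the mES cell share was the larger (0.599% ± 0.00138, SD, n = 3, against 0.209% ± 0.00181), whereas in IP the K562 share was the larger (0.956% ± 0.0711 against 0.314% ± 0.0171). Each contrast of IP with Input gave p = 0.1 in an exact two-sided permutation test, which is the smallest p that 3 libraries against 3 allow. With the counts of protein-coding genes of the nuclear genome as the total, the ratios were 0.585 and 4.76.

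**Figure D1:**
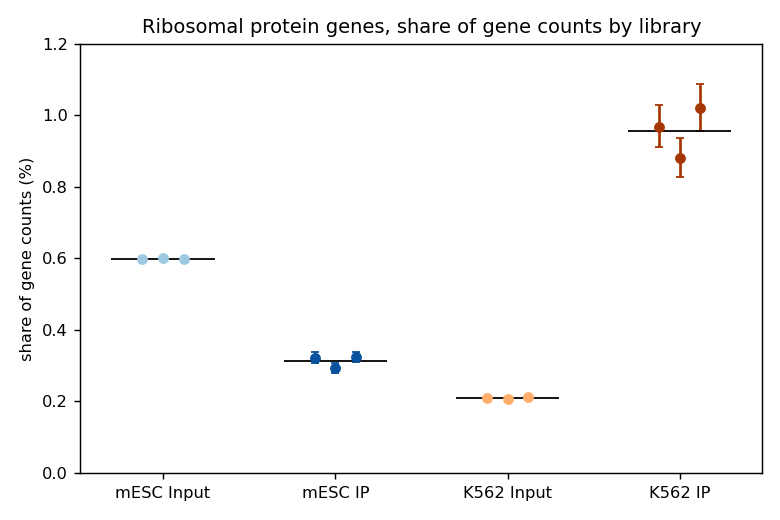
Share of gene counts in ribosomal protein genes (y axis, percent) in each of the 12 libraries, grouped by cell line and library kind on the x axis. Points are libraries, vertical bars are Wilson 95% intervals that cover counting error only, and horizontal lines are group means. The mES cell IP libraries (0.294% to 0.324%) lie below their Input (0.597% to 0.600%), and the K562 IP libraries (0.880% to 1.02%) lie above theirs (0.207% to 0.211%).

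Gene by gene, mES cell IP libraries held less of nearly every ribosomal protein gene than Input did. Of the 83 genes tested with edgeR's quasi-likelihood test on TMM-scaled counts, 80 were lower in IP, none was higher and 3 did not pass the threshold (Benjamini-Hochberg adjusted p of 0.05). With Input thinned to the depth of IP, 30 of 74 tested members were lower and none higher. Of all 10285 genes tested then, 22.9% were lower and 36.9% higher. The same 74 members were all lower with the deposited Input, so most of these calls depend on the deeper Input. Their median log2 went from −1.96 with the deposited Input to −0.59 with the thinned one, and that of the 10285 genes from −1.16 to 0.17. With the deposited Input, none of the 83 was higher at an unadjusted p under 0.05 either, nor by DESeq2 (0 in each case). Over all 20244 genes tested, 42.1% were lower, 39.9% were higher and 82.0% were called in either direction, so a call alone says little in this comparison. The median log2 IP/Input of the ribosomal protein genes was −1.97, with quartiles of −2.35 and −1.55, against −0.17 over all tested genes, a difference of −1.80. It was −1.97 too with the 2 tested members without an IP count set at their bound. All 3 IP libraries lay below all 3 Input libraries in CPM for 65 of the 83 genes, where 27.6% of all tested genes did so, and above them for 2 (Rpl19 and Rpl10l), where 47.7% did. Both subunits took part, with 47 of 49 large subunit genes lower (median −1.95) and 33 of 34 small subunit genes (median −2.04).

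This deficit was close to that of other well-expressed genes. Of the 7469 genes with a mean of at least 20 CPM in Input, 88.1% were lower in IP and 3.60% higher, and their median was −1.65. The 73 ribosomal protein genes among them were all lower, with a median of −1.96, which is −0.31 from the median of those genes. Across the other protein-coding genes, log2 IP/Input fell with the Input level (Spearman's rho −0.77 over 15551 genes, which share the same libraries). Input is the denominator of this ratio and genes could pass the filter on their IP counts alone, so a negative rho was partly built in. The part of that relation in the values of the ribosomal protein genes was not tested.

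The genes of the mES cells least lowered in IP were Rpl19, Rpl36, Rps29, Rps21 and Rplp1, named by a fixed rule for the 5 at each end among genes with at least 10 IP counts and a mean of at least 5 CPM. Rpl19, a large subunit protein (chr11:98026710-98030492, plus strand, GRCm38), had 58.3, 57.1 and 59.0 CPM in the Input libraries and 59.1, 59.5 and 92.9 CPM in the IP libraries. The IP values lay just above the Input values in plain CPM for 2 libraries and well above for 1, and the negative fitted log2 IP/Input of −0.68 ± 0.17 (SE) came from TMM scaling (adjusted p = 0.00172, edgeR quasi-likelihood with Benjamini-Hochberg). Scaled by library size alone, Rpl19 was 0.29 higher in IP on the log2 scale, so its direction depended on the scaling. Rpl36 had 28.8, 28.7 and 27.4 CPM in Input and 21.1, 28.9 and 47.3 CPM in IP. The groups overlapped, and its log2 of −0.74 ± 0.24 turned to 0.23 with library size alone, so its direction depended on the scaling too. Rplp1, an acidic protein of the ribosomal stalk, had 71.3, 69.4 and 67.1 CPM in Input and 48.6, 47.6 and 86.1 CPM in IP, with 1 IP library above all Input libraries, and a log2 of −1.14 ± 0.18. Its stalk partners lay lower. Rps29 and Rps21, small subunit proteins, were fitted at −0.98 ± 0.31 and −1.05 ± 0.27.

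At the other end stood Rpl10, Rps15a, Rpl15, Rps3 and Rps15. Rpl10, which joins the large subunit late in its maturation (chrX:74270812-74273135, plus strand), had 45.5, 51.2 and 46.1 CPM in Input and 14.8, 11.9 and 5.06 CPM in IP. The IP libraries lay far below Input, on 17 counts in all, at a log2 of −3.18 ± 0.32 (adjusted p = 1.29e-07, edgeR, Benjamini-Hochberg). Rps15a, a small subunit protein (chr7:118104372-118116188, minus strand), had 193, 189 and 195 CPM in Input and 35.9, 51.0 and 72.6 CPM in IP, at a log2 of −2.80 ± 0.15. Its groups did not overlap and its IP counts, 17, 30 and 43, make it the better measured of the pair. Rpl15, Rps3, a small subunit protein at the mRNA entry site, and Rps15 were fitted at −2.77 ± 0.31, −2.73 ± 0.19 and −2.62 ± 0.32.

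Members with well-known roles lay between these ends. Rpl3, near the peptidyl transferase centre, had 357, 363 and 353 CPM in Input and 192, 177 and 171 CPM in IP, with little spread in either, at a log2 of −1.97 ± 0.09. The other proteins of the stalk, which recruits translation factors, Rplp0 and Rplp2, were fitted at −1.55 ± 0.16 and −1.71 ± 0.24. Rpsa, a small subunit protein also known as a laminin receptor, had a log2 of −2.01 ± 0.14, and Rps18, in the head of the small subunit, −2.40 ± 0.21. All of these passed the edgeR threshold.

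Most paralogue-like genes of the mES cells were lower in IP as well. Rpl22 and its paralogue Rpl22l1 were both lower in IP, with 73.3, 77.1 and 74.6 CPM in Input and 33.8, 49.3 and 33.8 CPM in IP for Rpl22, and 25.8, 25.4 and 24.9 CPM in Input and 14.8, 8.50 and 3.38 CPM in IP for Rpl22l1. The groups of both were apart, at log2 values of −1.91 ± 0.19 and −2.55 ± 0.35, and the difference between the paralogues was not tested. Rpl7 and Rpl7l1 were at −2.32 ± 0.19 and −2.17 ± 0.16. Rps27l, a stress-induced paralogue of Rps27, had 373, 378 and 451 counts in Input and 0 in every IP library, which makes it at least 6.85-fold lower in IP against a floor of 3 counts over the group. Rpl39l, a paralogue best known from the testis, also had no IP count beside 72, 55 and 52 in Input, a bound of at least 1.02-fold lower. Rps19bp1 had 0, 1 and 1 IP counts, a ratio of IP to Input of 0.150 (95% interval 0.0181 to 0.543). Rps27 itself had 1, 2 and 4 IP counts beside 521, 616 and 655 in Input, at a log2 of −3.10 ± 0.42. Among the other parent genes, Rpl26 was at −1.52 ± 0.16, Rpl36a at −1.76 ± 0.28 and Rpl39 at −3.24 ± 0.40, and all of these passed the edgeR threshold. Rpl36al had no IP count and too few Input counts to be tested.

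The 3 genes that did not pass were all copies of other members. Rps27rt, a retrotransposed copy, had an adjusted p of 0.0786 by edgeR (Benjamini-Hochberg) at a log2 of −2.22 ± 1.12. Rpl10l, an intronless copy of Rpl10, had 61, 87 and 56 counts in Input and 2, 7 and 3 in IP, and Rpl3l, a muscle paralogue of Rpl3, had 6, 0 and 0 in IP. Each of the last pair rests on a few IP counts, at fitted log2 values of 0.80 ± 0.54 and 1.38 ± 1.00, and Rpl3l on a single library. The mouse read-through gene RPS10-NUDT3 overlaps Rps10 and Nudt3 and had 8, 0 and 0 IP counts, so that its call of −2.24 ± 0.64 rests on 2 libraries without a count and 1 with 8.

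In K562 the direction was the opposite. Of 80 ribosomal protein genes tested, 66 were higher in IP, none was lower and 14 did not pass (edgeR, adjusted p of 0.05). None was lower at an unadjusted p under 0.05 or by DESeq2 (0 in each case). Over all 14522 genes tested, 15.0% were higher, 16.8% lower and 31.9% called in either direction. The median log2 IP/Input of the ribosomal protein genes was 1.88, with quartiles of 1.33 and 2.49, against −0.17 over all tested genes, a difference of 2.05. All 3 IP libraries lay above all 3 Input libraries for 72 of the 80 genes, where 22.4% of all tested genes did so, and below them for none, where 24.4% did. Large subunit genes (39 of 48, median 1.88) and small subunit genes (27 of 32, median 1.91) moved together. Among the 8079 genes with a mean of at least 20 CPM in Input, 5.19% were higher and 29.7% lower with a median of −0.42, and 40 of the 47 ribosomal protein genes there were higher, with a median of 1.78.

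The strongest K562 member was RPS18, whose protein sits in the head of the small subunit (chr6:33272075-33276511, plus strand, GRCh38). It had 116, 107 and 110 counts in the Input libraries (9.78, 9.28 and 10.5 CPM) and 23, 25 and 17 counts in the far shallower IP libraries (213, 225 and 183 CPM). The groups were far apart, at a log2 of 4.18 ± 0.29 (SE, adjusted p = 5e-31, edgeR, Benjamini-Hochberg). RPL7, a large subunit protein with RNA-binding activity, had 10.6, 10.6 and 11.4 CPM in Input and 102, 126 and 172 CPM in IP, at 3.38 ± 0.34. RPL19 had 24.2, 27.0 and 28.1 CPM in Input and 306, 269.6 and 290.0 CPM in IP, at 3.23 ± 0.22, and was thus near the upper end in both lines. RPS2 and RPS6, the small subunit protein that S6 kinases phosphorylate, were at 3.14 ± 0.25 and 3.09 ± 0.25. These 5 values were all past the threshold.

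Under the same limits on counts and level, the K562 members least raised in IP were RPL37A, RPL31, RPL7L1, RPS19 and RPL39L. RPL37A, a zinc-binding large subunit protein (chr2:216498825-216579180, plus strand), had 42.6, 42.7 and 45.2 CPM in Input and 55.6, 62.9 and 53.7 CPM in IP. The IP values lay just above Input and the log2 of 0.19 ± 0.35 did not pass (adjusted p = 0.73, edgeR, Benjamini-Hochberg). Its annotated gene runs over 80356 bp, most of it intron, beside 4437 bp for RPS18. RPS19, the first gene linked to Diamond-Blackfan anaemia, had 81.1, 80.6 and 77.4 CPM in Input, the highest of these genes, and 111, 144 and 150.4 CPM in IP. All its IP libraries lay above Input, but the log2 of 0.54 ± 0.23 did not pass with TMM scaling (adjusted p = 0.0699, edgeR, Benjamini-Hochberg) and did with RLE scaling, library size alone or DESeq2. RPL31, RPL7L1 and RPL39L were at 0.33 ± 0.29, 0.36 ± 0.32 and 0.85 ± 0.46, and none of these passed.

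The stalk genes were among those raised in K562. RPLP0 had 39.2, 39.8 and 40.1 CPM in Input and 250.1, 216 and 397 CPM in IP, without overlap, at a log2 of 2.61 ± 0.20. RPLP1 and RPLP2 were at 2.99 ± 0.32 and 2.64 ± 0.30. RPL3 was at 2.21 ± 0.19, RPSA at 1.50 ± 0.26 and RPL10, the lowest in mES cells among members with at least 10 IP counts, at 1.32 ± 0.30. All of these passed, and RPL10 was below the K562 median.

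Of the 14 K562 members without a call, 6 lay outside the core genes (RPL7L1, RPL22L1, RPL26L1, RPL39L, RPS27L and RPS19BP1). RPL22L1 had 1 count in each IP library and 133, 119 and 119 in Input, a ratio of 0.877 (95% interval 0.180 to 2.58), so no difference was detectable at this depth, while RPL22 had 25.1, 25.7 and 27.4 CPM in Input and 64.9, 53.9 and 53.7 CPM in IP. RPL22 lay higher in every IP library, at 0.93 ± 0.39 (adjusted p = 0.0548, edgeR, Benjamini-Hochberg), short of the threshold with TMM scaling and past it with RLE scaling, library size alone or DESeq2. RPS27L, RPL26L1 and RPS19BP1 were at 0.72 ± 0.85, 0.94 ± 0.87 and 0.06 ± 0.79, none of which passed. RPL36AL, an intron-poor copy of RPL36A, was higher, at 2.56 ± 0.74, and RPS27 was at 2.83 ± 0.42. The call of RPL36AL rested on 2, 3 and 2 IP counts and was lost without K562 IP replicate 2. The human read-through gene RPS10-NUDT3, which covers the whole span of RPS10, was at 1.84 ± 0.60 and called higher. Its call, on 10 IP counts, was lost without K562 IP replicate 3 and with all K562 Input replicates counted as 1 sample. RPL36A-HNRNPH2 and RPL3L had 2 IP counts each, at ratios of IP to Input of 6.57 (95% interval 0.764 to 25.7) and 5.71 (95% interval 0.667 to 22.1), so that no difference was detectable. RPL17-C18orf32 had none. RPL39, parent of RPL39L, was at 0.73 ± 0.64 and did not pass.

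**Figure D2:**
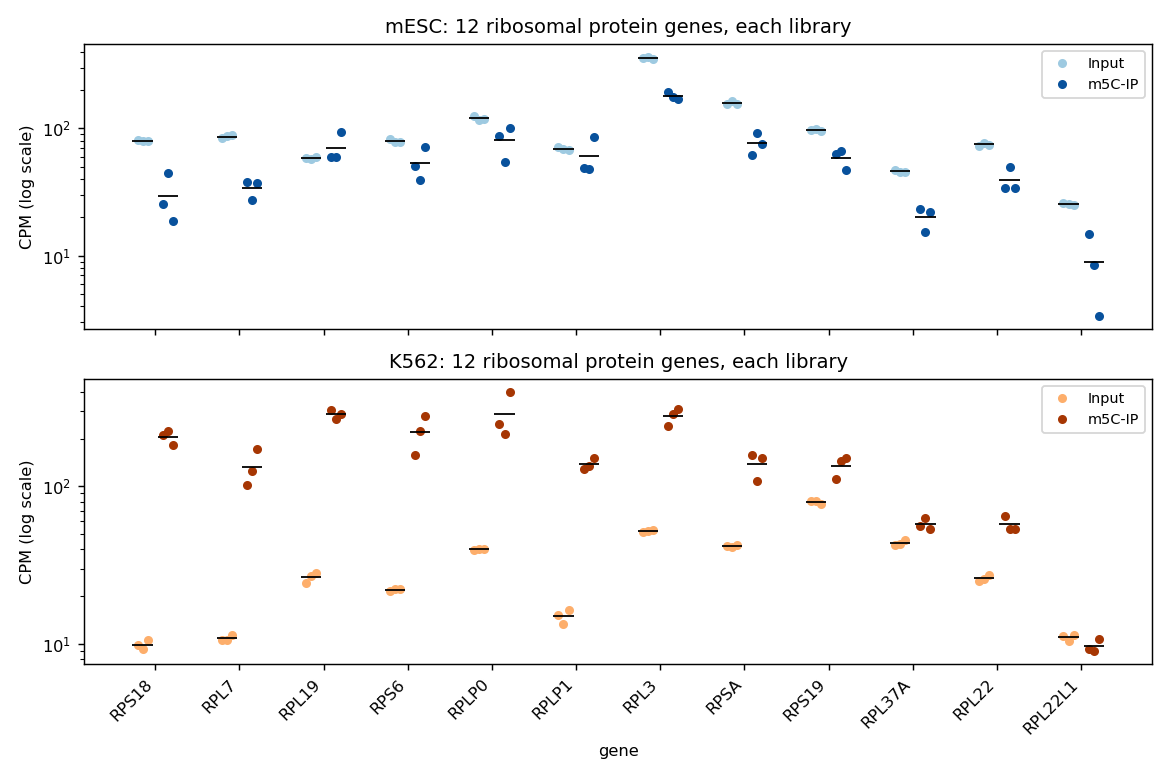
CPM (y axis, log scale) of 12 ribosomal protein genes in each library, with mES cell and K562 Input and IP as separate groups of 3 points per gene. In K562, RPS18 moves from about 9.28 to 10.5 CPM in Input to 183 to 225 CPM in IP, whereas RPL37A and RPL22L1 stay near their Input level. In mES cells most IP points lie below their Input points, and those of Rpl19 do not.

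The difference between the lines was tested directly, by fitting the 12 libraries together with an interaction term of line and IP, for symbols present in both species. Of 84 ribosomal protein symbols tested, 72 had a higher log2 IP/Input in K562 than in mES cells, none a lower one and 12 did not pass (edgeR, adjusted p of 0.05). None was lower at an unadjusted p under 0.05 (0), and DESeq2 called 1 lower, RPL24, which has no count in the mES cells. Over all 14242 genes, 16.5% were higher in K562, 14.5% lower and 30.9% called in either direction. The median difference of the 84 was 3.21 on the log2 scale, against 0.17 over all genes. Of the 84, 77 had counts in both lines, and the 72 called were all among these. In 62 symbols the single-line fits called the gene lower in mES cell IP and higher in K562 IP. Of all genes tested in each line, 42.1% were lower in mES cell IP and 15.0% higher in K562 IP. How many of all shared symbols did both was not counted, so the 62 has no share to be read against. Line, species, depth and the annotation all change together in this comparison, so they cannot be told apart.

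Genes were ranked among the 66 that met the limits on IP counts and level in both lines. There the difference was widest for RPS18, at 5.96 ± 0.38 (SE, adjusted p = 3.02e-13, edgeR, Benjamini-Hochberg), RPL7 (5.08 ± 0.42), RPS15 (4.53 ± 0.53), RPS20 (4.50 ± 0.44) and RPL6 (4.44 ± 0.37). It was narrowest, among genes with enough IP counts in both lines, for RPS19 (1.61 ± 0.33), RPL37A (1.74 ± 0.50), RPS29 (1.91 ± 0.46), RPL7L1 (1.91 ± 0.46) and RPL37 (1.91 ± 0.35). All genes of the first group lay below the median of the mES cell values and above that of the K562 values. Outside the limits, RPS27L (10.8 ± 2.72) and RPL39L (8.17 ± 2.81) had larger differences, with 0 IP counts in mES cells. RPL13A (5.43 ± 0.51) and RPS27 (5.30 ± 0.61) lay above RPL7, on 3 and 7 mES cell IP counts. Each of these passed, whereas RPL36AL (7.49 ± 3.18), also with 0 mES cell IP counts, did not. The order of the genes in the 2 lines was only loosely alike: over the 66 genes with at least 10 IP counts in each line, Pearson's r between the log2 values was 0.22 and Spearman's rho 0.25, as a description across genes that share libraries. RPL19 and RPLP1 stood high in both, RPL10 low in mES cells and below the median in K562.

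**Figure D3:**
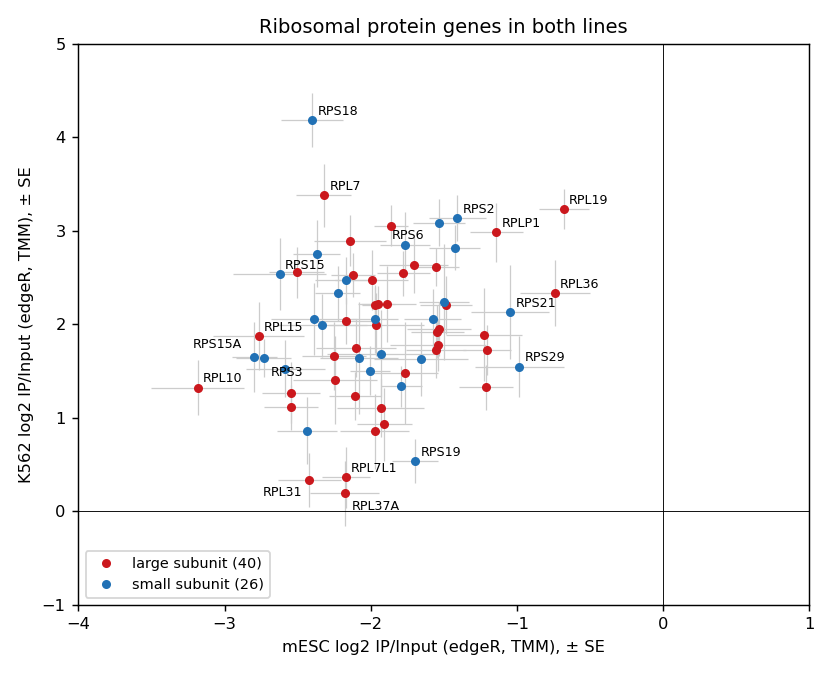
Log2 IP/Input in mES cells (x axis) and K562 (y axis) for the 66 ribosomal protein genes with at least 10 IP counts in each line, 40 of the large and 26 of the small subunit, with bars of 1 SE. All points lie left of 0 on the x axis and above 0 on the y axis, with RPS18 highest at 4.18 in K562 and RPL37A lowest at 0.19.

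Genes outside the symbol rule, from lists set beside the ribosomal protein genes, show which of these shifts were shared. Over all tested genes, 42.1% were lower in mES cell IP, and in K562 IP 15.0% were higher and 16.8% lower. Among genes with a mean of at least 20 CPM in Input, 88.1% were lower in mES cells and 5.19% higher in K562. The mES cell counts of the lists are thus not particular to them. Other translation genes with TOP transcripts, such as elongation factors, were lower in mES cells in 17 of 17 (median −2.08) and higher in K562 in 11 of 15 (median 1.79). In K562, EEF1A1, the main elongation factor, was at 3.40 ± 0.14 and NACA, a chaperone at the ribosome exit, at 3.80 ± 0.30. Abundant cytosolic mRNAs with other functions did the same, with 19 of 21 gene entries lower in mES cells (median −1.86) and 15 of 19 higher in K562 (median 1.71), such as ACTB at 2.34 ± 0.17 and FTH1 at 2.53 ± 0.19.

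Nuclear-encoded genes of ribosome assembly and of the mitochondrial ribosome parted from this. Ribosome biogenesis genes were lower in mES cell IP in 28 of 28 (median −1.76), but in K562 only 2 of 27 were higher and 2 lower, with a median of 0.07. NCL, the abundant nucleolar protein nucleolin, was 1 of the higher pair, at 1.72 ± 0.19. Mitochondrial ribosomal protein genes were lower in mES cells in 66 of 74 (median −1.94), and in K562 4 of 68 were higher and 3 lower, with a median of −0.07. In mES cells, the medians of these nuclear gene lists fell between −1.76 and −2.08, the ribosomal protein genes included, whereas in K562 the ribosomal protein genes sat with TOP and abundant mRNAs and apart from the assembly lists. The differences between lists were not tested.

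Other kinds of RNA were measured beside these genes. Protein-coding genes of the mitochondrial genome were lower in mES cell IP in 7 of 7 tested (median −2.50) and higher in K562 IP in 13 of 13 (median 4.47). All mitochondrial genes together held 0.0508% to 0.0518% of the mES cell IP counts against 0.111% to 0.114% of Input, and 0.553% to 0.570% of the K562 IP counts against 0.0312% to 0.0384% of Input. Of 6 nuclear long non-coding RNAs, which are kept on chromatin, 5 were lower in mES cell IP (median −1.79 over the 6) and Airn was higher (1.63 ± 0.19). In K562, 3 of 5 tested, MALAT1, NEAT1 and MEG3, were higher, at 3.37 ± 0.06, 1.55 ± 0.08 and 5.27 ± 0.75. MEG3 rested on 9 IP counts in all, beside a mean of 0.62 CPM in Input. KCNQ1OT1, a long unspliced transcript, was lower at −0.99 ± 0.18, and FIRRE, at −0.51 ± 0.25, did not pass. The part of mitochondrial, cytosolic or spliced RNA in the K562 values of the ribosomal protein genes was not tested.

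**Figure D4:**
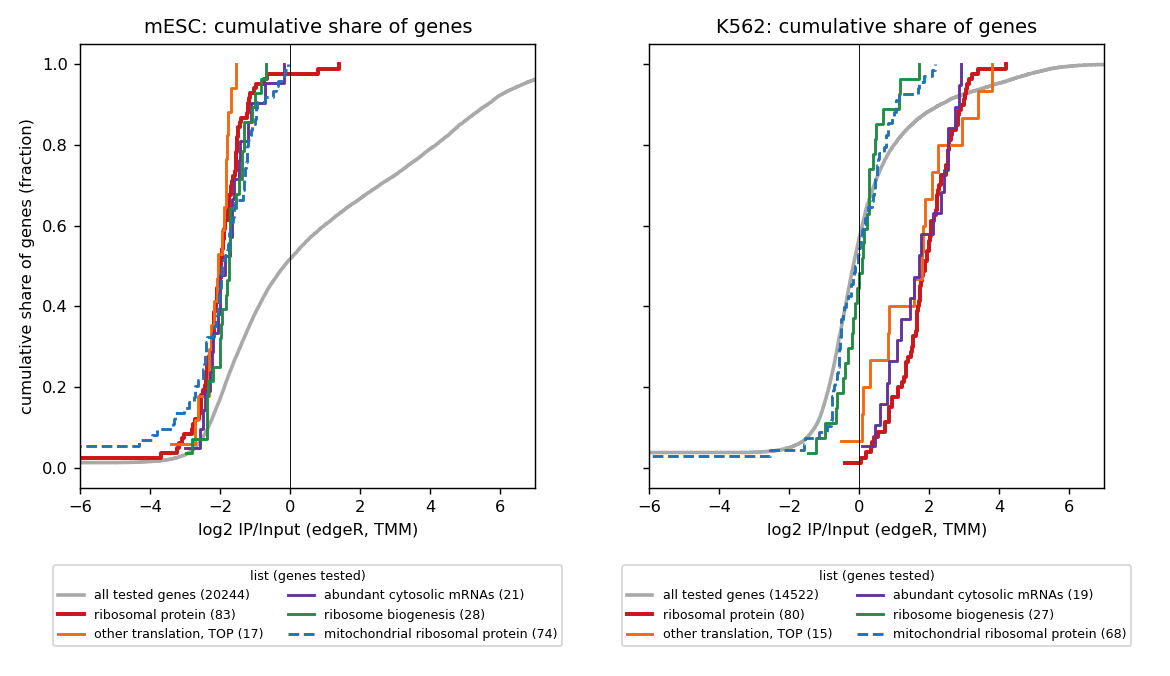
Cumulative share of genes (y axis, fraction from 0 to 1) against log2 IP/Input (x axis, cut at both ends) for the ribosomal protein genes, 4 other lists and all tested genes in mES cells (left) and K562 (right). In mES cells the lists run together, left of all genes. In K562 the ribosomal protein genes (median 1.88) run with TOP translation genes (1.79) and abundant mRNAs (1.71), and the biogenesis (0.07) and mitochondrial ribosomal protein genes (−0.07) follow all genes (−0.17).

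Levels in Input were taken per kilobase because genes differ in length. Of genes lying wholly inside a same-strand gene without a shared exon, 99.9% of 5373 were at 0 in mES cells and 97.7% of 6860 in K562, as counting over whole genes with their introns would give, so the level was set per kilobase of gene span. On this scale the median ribosomal protein gene had 17.8 CPM per kb in mES cell Input (0.0327 to 55.5 over 85 genes) and 3.84 CPM per kb in K562 Input (0.0459 to 12.9 over 83 genes). In mES cells the order began with Rps12 (55.5 ± 1.99 CPM per kb, SD, n = 3), Rplp1 (55.0 ± 1.69), Rpl41 (49.1 ± 1.01), Rps9 (43.1 ± 1.27) and Rpl12 (39.9 ± 0.401), of which the first pair do not differ beyond their spread. In K562 it began with RPL10A (12.9 ± 0.471 CPM per kb), RPL7A (9.24 ± 0.282), RPL13 (9.16 ± 0.433), RPLP0 (8.75 ± 0.101) and RPL12 (8.44 ± 0.536), where each of the last 4 lies within the spread of its neighbour. The orders were little alike, with a Spearman's rho of 0.22 over the 77 genes with counts in both. Per kilobase of merged exons the leaders changed, to Rplp1 (139 ± 4.27 CPM per kb) and Rpl38 (114 ± 0.931) in mES cells and RPS12 (28.0 ± 1.31) and RPS19 (23.0 ± 0.578) in K562. Read-through genes stood near the bottom, with human RPS10-NUDT3 at 0.0546 ± 0.00478 CPM per kb of span. Paralogue-like genes were spread, with Rpl36al at 0.254 ± 0.105 CPM per kb in mES cells, far below the median there, and RPL7L1 at 4.57 ± 0.138 in K562, above the median. Other genes of the same strand overlap 82.4% of the span of human RPS10-NUDT3 and 92.4% of that of Rpl36al. Counts are mostly lost under such overlap, so the low levels of this pair are no clear measure of expression.

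**Figure D5:**
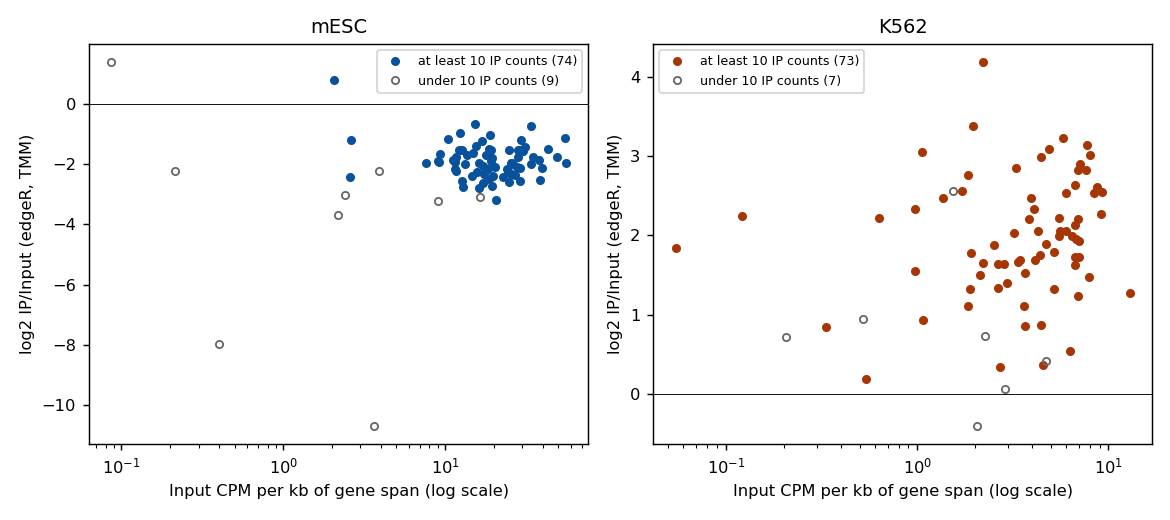
Log2 IP/Input (y axis) against the Input level in CPM per kilobase of gene span (x axis, log scale) for the tested ribosomal protein genes of mES cells and K562, with genes of fewer than 10 IP counts drawn apart (9 of 83 and 7 of 80). Spearman's rho over the genes with at least 10 IP counts is −0.0165 in mES cells (74 genes) and 0.22 in K562 (73 genes).

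Ribosomal protein genes are short and rich in exon. Exons made up a median of 55.9% of the span of the tested mouse members and 52.3% of the human ones, against 16.3% and 14.6% for other tested protein-coding genes. Their median span was 3368 bp in mouse and 5548 bp in human, against 27193 bp and 39800 bp. Among members with at least 10 IP counts, longer exons went with a lower log2 IP/Input (rho −0.44 over 74 genes in mES cells, −0.27 over 73 in K562), and the span did so in K562 (rho −0.40). Over all tested members, the rho for exon length was −0.23 in mES cells (83 genes) and −0.20 in K562 (80 genes). GC content of the exons was only weakly related (rho 0.25 and 0.17). These are descriptions across genes of the same libraries.

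Members with a snoRNA gene inside them, 30 of the 87 mouse and 29 of the 91 human genes, had a median of −1.95 over 29 tested in mES cells, against −1.99 over 54 without. In K562, 26 of 27 such genes were higher (median 2.06), against 40 of 53 without (median 1.78). Neither difference was tested. Near-identical copies affect most members, since 83 mouse and 89 human members share at least 1 run of 50 bases with another gene, and their counts depend on how reads with several alignments were handled. More than 50% of such runs were shared in 8 mouse and 3 human members. The 76 tested mouse members below that level had a median of −1.98 and the 79 human ones a median of 1.89, close to those of all members. The 7 tested mouse members above it had a median of −1.54, and they include Rpl19, Rpl36 and Rplp1, named above among the least lowered. The part of shared sequence in these values was not tested.

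The starts of the mouse genes were searched for the pyrimidine run of TOP transcripts. RefSeq promoter windows on GRCm38.p6, from 250 bases before to 50 bases after the start, matched 66 of the 87 members, in 78 windows. A run of at least 5 pyrimidines reaching into bases −5 to 10 around the start was present in 57.7% of the member windows, against 38.0% of all 32851 windows. CTTTC or CTTCC within the first 15 transcribed bases, on the sense strand, was present in 26.9% against 4.71%. The letters CCGGAAG, on either strand anywhere in the window, were present in 34.6% against 8.86%. On the opposite strand they read CTTCCGG, which holds CTTCC, so these motifs can overlap. The 15 bases before and the 15 after the start are printed for members near the ends of the mES cell order, a paralogue pair and 3 members named for other reasons (Rps18, Rps27 and Rplp2), with the pyrimidine run in capitals:
Rps15a, among the lowest in mES cell IP (chr7:118116133-118116162, minus strand): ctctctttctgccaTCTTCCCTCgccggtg
Rpl15, also among the lowest (chr14:18270972-18271001, minus strand): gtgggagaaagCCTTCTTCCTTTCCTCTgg
Rpl10, the lowest of those with at least 10 IP counts, with no such run (chrX:74270801-74270830, plus strand): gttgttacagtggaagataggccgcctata
Rpl19, the least lowered by the same limit (chr11:98026695-98026724, plus strand): tgaccaaacgCCCTCactgcgcatgtgcgc
Rps18, the highest in K562 (chr17:33955651-33955680, minus strand): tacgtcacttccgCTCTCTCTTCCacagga
Rps27, of few IP counts (chr3:90213634-90213663, minus strand): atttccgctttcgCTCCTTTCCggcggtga
Rplp2, a stalk gene (chr7:141447636-141447665, plus strand): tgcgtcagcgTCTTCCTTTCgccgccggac
Rpl22, with no such run (chr4:152325711-152325740, plus strand): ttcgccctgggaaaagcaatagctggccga
Rpl22l1, its paralogue (chr3:28805493-28805522, plus strand): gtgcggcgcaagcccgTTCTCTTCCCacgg
All printed starts are of mouse genes, and the K562 rank given beside Rps18 is that of human RPS18, whose start was not examined. Where the table gives several starts for a gene, 1 is printed, and a start in the table can differ from the start used in these cells. By the presence of the run, the median log2 IP/Input in mES cells was −1.99 over 41 tested members with the run and −1.93 over 21 without it, and the low end of the order held genes of each kind, as the printed starts of Rps15a and Rpl10 show.

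Peaks, which the authors called for each mES cell IP library and strand, almost never fell on these genes. The lists held 11146, 15404 and 15797 peaks for replicates 1, 2 and 3. A peak of the same strand overlapped 1 of the 87 mouse members by at least 1 bp, against 23.6% of 15641 tested protein-coding genes, which have longer spans. It was a 150 bp peak of replicate 1 at chr4:136032614-136032763 (mm10), inside Rpl11 and outside its exons. Rpl11 had 66.2, 67.6 and 64.0 CPM in Input and 57.0, 59.5 and 52.3 CPM in IP over the whole gene, without overlap, at a log2 of −1.20 ± 0.16. Rpl11 is a large subunit protein that binds 5S rRNA and the regulator of p53, MDM2. A same-strand peak on an exon was found in 0 members, against 7.48% of those genes, and same-strand peaks in all 3 replicates in 0, against 2.76%, a share so low that 0 of 87 is near it. With peaks of either strand counted, 6 members were touched (Rpl11, Rpl23, Rps6, Rps16, Rps27a and the read-through gene RPS10-NUDT3), against 44.2% of the protein-coding genes. In RPS10-NUDT3 all 3 replicates had an opposite-strand peak, at 3 separate places. How far gene length accounts for the difference from other genes was not tested, and peak lists of K562 were not analysed here.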

How the data were processed

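The deposited files hold raw counts of reads per gene, made by the authors, for 12 caRNA libraries (Input and m5C IP of wild-type mES cells and K562, 3 each) and a peak list for each mES cell IP library. Per the labels' processing notes, reads were trimmed with Trimmomatic 0.39 and aligned with HISAT2 2.1.0 to mm10 or hg38. The deposited counts end in HTSeq summary lines, which were kept out of library sizes and tests and held 19.0% to 19.3% of records in mES cell Input, 71.4% to 71.7% in mES cell IP, 26.0% to 26.2% in K562 Input and 60.7% to 61.4% in K562 IP. Whether duplicates were removed before counting is not given in the sources used here, and spike-in values were not used, so values are relative within a library. The counting mode is not given either. Genes inside a same-strand gene were at 0 in 99.9% (mES cells) and 97.7% (K562) of cases, against 33.2% and 51.7% inside an opposite-strand gene alone, as stranded counting over whole genes would give, so levels were set per kilobase of gene span in addition to merged exons, a choice made after seeing the data. Peaks came from MACS2 for each library and strand, with 150 bp fragments and after removal of duplicates with Picard. The deposited peak positions carry no usable score in the lists.

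Groups follow the titles. The antibody label of GEO goes against the titles, naming none for mES cell IP and the m5C antibody for K562 Input. Symbols and positions were read from the GENCODE annotations M21 on GRCm38 and 44 on GRCh38, other releases than those used by the study, which matched 99.9% and 99.2% of identifiers. Identifiers without a match held up to 0.184% of a library. Start sequences came from RefSeq windows on GRCm38.p6.

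Genes were tested on the counts as deposited with edgeR 4.0.16 in R 4.3.3 (glmQLFit, glmQLFTest, TMM scaling, filterByExpr, Benjamini-Hochberg adjustment at 0.05 over all tested genes), in each line and as the interaction of line and library kind. The SE is the absolute log2 divided by the square root of F. The scripts were tested on simulated counts. Alternatives were RLE and library size scaling, DESeq2 1.42.0, no filter on low counts, Input thinned to the IP depth, a GC correction, a replicate block, core genes alone, each library left out and, added after seeing the data, K562 Input replicates counted as 1 sample. Overlaps with peaks used 1 bp (bedtools 2.31.1). Intervals are Wilson (shares) or exact Clopper-Pearson (ratios) at 95% and, like the floor of 3 counts, cover counting error only. Without molecular identifiers, reads are not independent molecules. These ratios and bounds use library sizes without TMM factors.

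The rule on symbols uses no measured value, but the choice of this gene group, and of the gene lists, was made with earlier results of these data known. Named by rule were, in each line, the 5 members with the highest and the 5 with the lowest log2 among those averaging 5 CPM or more and holding 10 or more IP counts, the 5 with the highest Input level, the 5 at each end of the difference between lines, and the paralogue-like, parent, stalk and Rpsa genes. Rps27rt, Rpl11 and the members under other peaks, and the genes named from the comparison lists, were chosen after their values were seen. The 2 Y-linked human members are not described. Protein sequences were not used here. A few items are not reported here.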

Additional observations from a re-analysis of the deposited data

Results flagged for a closer look

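The contrast of IP with Input differed between mES cells and K562 for 72 of the 84 ribosomal protein symbols tested, by an interaction term in edgeR over all 12 libraries (Benjamini-Hochberg adjusted p of 0.05). All of these were higher in K562. Over all genes, 16.5% were higher in K562. Among symbols within the limits on IP counts and level in both lines, the difference in log2 IP/Input was 5.96 ± 0.38 (SE) for RPS18, 5.08 ± 0.42 for RPL7, 4.53 ± 0.53 for RPS15, 4.50 ± 0.44 for RPS20 and 4.44 ± 0.37 for RPL6 at the wide end. At the narrow end it was 1.61 ± 0.33 for RPS19, 1.74 ± 0.50 for RPL37A, 1.91 ± 0.46 for RPS29, 1.91 ± 0.46 for RPL7L1 and 1.91 ± 0.35 for RPL37. Each of these was listed because the difference between the lines itself passed the test. Groups of 3 libraries were not searched for single libraries far from the others. Mitochondrial genes, the share of records outside genes and the depth of the IP libraries also differed between the lines, and their part in these values was not tested.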

How the results depend on the processing

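The median of the ribosomal protein genes relative to all genes kept its direction in each line under all alternatives run, and depth and scaling limited single genes. In mES cells 66 to 81 members were lower under all alternatives but thinning, and in K562 60 to 70 were higher under all but thinning. Over all genes tested in these alternatives, 24.0% to 42.1% were lower in mES cells and 11.4% to 18.9% higher in K562. With Input thinned to the IP depth, 30 of 74 tested members were called lower in mES cells, 32 of 33 higher in K562 and 56 of 73 in the comparison of the lines. Over all genes tested then, 22.9% were lower in mES cells, 11.1% higher in K562 and 8.1% higher in the comparison of the lines. The median relative to all tested genes was then −0.76 in mES cells and 2.80 in K562, and on the same genes with the deposited Input it was −0.79 and 2.95, so the smaller set of genes tested accounts for most of that move. Without the filter on low counts it was −3.01 and 2.25, over more genes. Leaving out 1 library gave 77 to 80 members called in mES cells (relative median −1.89 to −1.70), 60 to 66 in K562 (1.97 to 2.095) and 66 to 72 in the comparison of the lines (2.98 to 3.33, the highest without K562 IP replicate 2), and ratios of the shares of 0.514 to 0.540 and 4.41 to 4.75.

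Scaling moved the median of all genes rather than the members' place in it. By library size alone the mES cell median of all genes rose by 0.97, 1 member (Rpl10l) was higher and 66 were lower, and the share of higher calls over all genes went from 48.7% to 67.2%. In mES cells, without the filter and with thinning that share was 56.6% and 61.7%. In K562 it went from 47.1% to 64.7% by library size, 64.8% by DESeq2, 57.1% by RLE and 65.3% with thinning, and in the comparison of the lines from 53.2% to 35.3% by RLE, 40.0% by library size and 38.9% with thinning. DESeq2 called 79 members in mES cells, 70 in K562, and 77 higher and 1 lower in the comparison of the lines. Over all genes, DESeq2 called 39.3% lower in mES cells, 18.9% higher in K562, and 20.4% higher and 22.3% lower in the comparison of the lines.

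Of single genes, 14 values turned sign. Library size alone turned Rpl19 (0.29) and Rpl36 (0.23), and thinning turned Rpl19 (0.61), Rpl36 (0.33), Rps29 (0.59) and Rplp1 (0.15). Without the filter RPL37A was −0.15, RPL31 −0.0025 and RPS19BP1 −0.28, the last also −0.17 with the GC correction. Leaving out 1 library gave −6.86 to 2.04 for Rpl3l, −0.45 to 1.57 for RPL26L1, −0.42 to 0.69 for RPS19BP1 and −10.86 to −1.57 for the mouse RPS10-NUDT3. The cause was not tested. Of the other values of named genes, 913 kept their direction and side of the threshold, 29 lost the call and 7 gained it.

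A peak overlapped no member on a same-strand exon (0), 6 on either strand, 5 on the opposite strand and 0 in all 3 replicates of the same strand, and leaving out 1 replicate gave 0 to 1, with 0 without replicate 1. The counts of opposite-strand peaks and of either strand in all 3 replicates (1) were added after seeing the data.

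Whether same-numbered Input and IP libraries belong together was not settled. Their deviations from the group means correlated at −0.00664 to 0.0274, against −0.0243 to 0.0099 for libraries of different numbers. In mES cells every same-numbered pair was positive and every other pair negative, whereas in K562 both kinds had either sign. Correlations this small cannot decide the pairing, since the low IP counts add noise to each gene. With the number as a replicate block, 79 members were lower in mES cells, 64 higher in K562 and 72 in the comparison of the lines.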
